A study of Homo sapiens with 4 samples.

Results

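The mRNAs of ID1, ID2, ID3, SOCS2, MYC and EGFR were followed in RNA immunoprecipitation sequencing (RIP-seq) of KIAA1429. They were chosen by gene name, as mRNAs described as regulated by N6-methyladenosine (m6A) in cancer, such as ID2 for KIAA1429 and SOCS2 for METTL3 in liver cancer, together with the paralogues of ID2. The deposited tables held 26 of their transcripts among 34975, and 6 of 13300 gene names. All 6 gene totals and 17 of the 26 transcripts averaged 1 FPKM or more, the level required for testing.

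In RIP-seq, an antibody recovers a protein from cell lysate and the RNA that comes down with it is sequenced. HCCLM3 cells, a line of human liver carcinoma, gave 4 libraries, namely 2 precipitated with an antibody against KIAA1429 (KIAA1429 RIP) and 2 with normal IgG (IgG RIP). The comparison asks which mRNAs are recovered with KIAA1429 beyond the IgG background. For neither group do the labels name a genetic change or a treatment of the cells. Each library gave 1 FPKM value per transcript, which scales fragments by transcript length and by mapped fragments, so levels can be set side by side between genes. A gene total is the sum over its listed transcripts, and each listed transcript had a group mean of at least 0.500 FPKM in one of the groups. The FPKM values summed to 295573 and 315446 with IgG and to 337041 and 340300 with KIAA1429. Read depth is unknown, and nothing states that the libraries came from separate cultures, so the spread between them may be technical.

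KIAA1429, also called VIRMA, is a scaffold subunit of the complex that writes m6A on mRNA. ID proteins are helix-loop-helix proteins without a DNA-binding region that pair with E proteins such as TCF3 and keep them from DNA, and their genes respond to BMP signals through SMAD proteins. SOCS2 restrains growth hormone signalling through JAK2 and STAT5, MYC is a transcription factor that binds DNA with its partner MAX, and EGFR is a receptor tyrosine kinase that drives growth in many carcinomas.

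The labelled cell type was checked against marker genes. Of the hepatocyte and hepatoma markers AFP was the most abundant, at 121 and 128 FPKM with IgG and 99.1 and 115 FPKM with KIAA1429. The serum protein gene ALB had 53.5 and 68.8 FPKM in the IgG libraries, against 66.2 and 76.3 FPKM in the KIAA1429 libraries. The hepatocyte regulator HNF4A reached at most 1.11 FPKM in a library. Of the 11 of these markers tested, 1 lay wholly higher and 3, AFP among them, wholly lower in KIAA1429 RIP. The keratin gene KRT18 had 879 and 820 FPKM with IgG and 1048 and 1006 FPKM with KIAA1429, and 2 of the 4 keratin and epithelial markers tested lay wholly higher, whereas CDH1 was not listed. Over all gene totals 16.6% lay wholly higher and 15.2% wholly lower. The mesenchymal gene VIM had from 659 to 1084 FPKM. None of the 4 endothelial markers was listed. Of 7 blood cell markers only CD14 and CD68 were listed, with CD68 between 28.7 and 72.2 FPKM, and the defining genes PTPRC, CD3E and CD79A were not. Of 5 mesenchymal markers 3 were listed, and they summed to 929 and 1000 FPKM with IgG and to 682 and 1124 FPKM with KIAA1429, nearly all of it VIM. COL1A1 and COL1A2 were not listed, and PDGFRB had 1.20 and 1.05 FPKM with IgG and 4.88 and 3.17 FPKM with KIAA1429. The source of the PDGFRB reads was not tested.

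EGFR, MYC and ID2 were lower in both KIAA1429 RIP libraries than in both IgG RIP libraries, SOCS2 was higher in both, and the groups overlapped for ID1 and ID3. Of all 11361 gene totals tested, 15.2% lay wholly lower and 16.6% wholly higher in KIAA1429 RIP, against 3 and 1 of the 6 mRNAs. The totals of EGFR and ID2 include transcripts that reached the listing level of 0.500 FPKM through IgG RIP alone. That of SOCS2 includes transcripts listed through KIAA1429 RIP alone. These counts thus rest in part on transcripts let in by the group in which they are high. No gene total passed the adjusted threshold in limma, an absolute log2 fold change above 1 with an adjusted p under 0.05, so the called share was 0% and included 0 of the 6. The adjusted p was 0.997 for each of them. At an unadjusted p under 0.05 from limma, 162 gene totals (1.43%) were lower and 360 (3.17%) were higher in KIAA1429 RIP, and MYC and EGFR were among the lower ones. With 2 libraries against 2, the smallest p that an exact two-sided permutation test can give is 0.333.

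**Figure D1:**
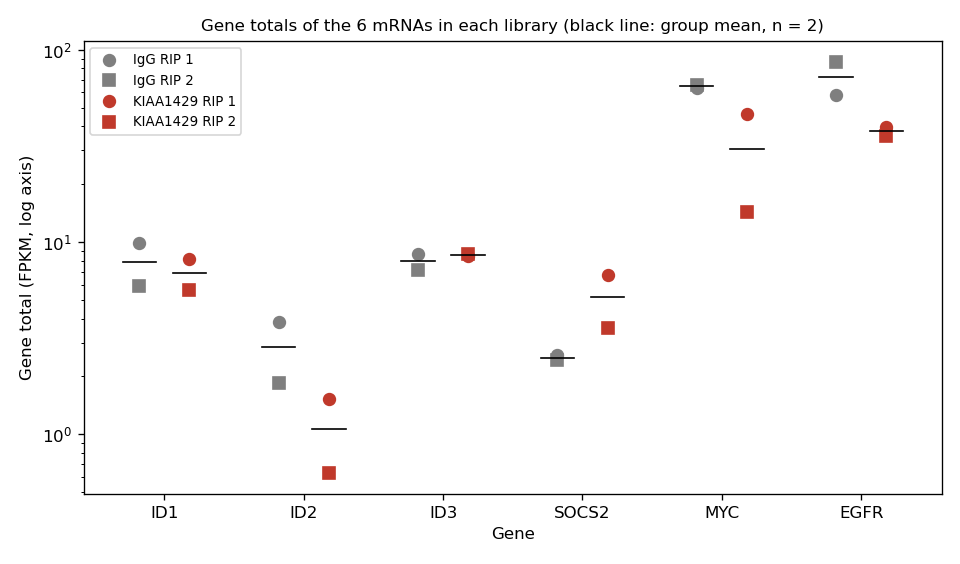
Gene totals in FPKM (log axis) of the 6 mRNAs, with a circle for replicate 1 and a square for replicate 2, IgG RIP in grey, KIAA1429 RIP in red and the mean of each group as a black line (n = 2). The red points lie below the grey points for ID2, MYC and EGFR and above them for SOCS2, and MYC has the widest gap between its KIAA1429 RIP libraries, 46.5 and 14.3 FPKM.

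In every library EGFR and MYC were the most abundant of the 6 mRNAs, ID1 and ID3 followed, and SOCS2 and ID2 were the lowest. In IgG RIP the means were 72.3 ± 20.2 FPKM for EGFR and 64.5 ± 1.39 FPKM for MYC (SD, n = 2), and their order was not the same in the 2 replicates. ID3 and ID1 had IgG RIP means of 7.93 ± 1.12 and 7.92 ± 2.80 FPKM (SD, n = 2), a difference well within their spread. At the bottom, ID2 had 2.85 ± 1.39 and SOCS2 2.51 ± 0.104 FPKM in IgG RIP (SD, n = 2), again within the spread. In KIAA1429 RIP this last pair separated, with SOCS2 4.45-fold above ID2 in replicate 1 and 5.68-fold above it in replicate 2. The SOCS2 total includes transcripts listed through KIAA1429 RIP alone, and the ID2 total includes transcripts listed through IgG RIP alone. The other neighbours in KIAA1429 RIP, EGFR with MYC and ID3 with ID1, differed between means by less than the larger SD of the pair, and so did ID1 and SOCS2.

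ID1 had IgG RIP values of 9.90 and 5.94 FPKM and KIAA1429 RIP values of 8.13 and 5.63 FPKM. Both groups thus held a higher and a lower library, and they overlapped. The log2 fold change, KIAA1429 RIP over IgG RIP on the log2(FPKM + 1) scale, was -0.16 ± 0.45 (SE from limma), smaller than its error. This scale understates the change of mRNAs at a few FPKM. The direction for ID1 turned without IgG RIP replicate 1, to 0.17, and without KIAA1429 RIP replicate 2, to 0.07. Its 2 listed transcripts kept their order in all libraries, with ID1-202 making up between 80.5% and 92.4% of the total.

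ID2 had 3.83 and 1.86 FPKM with IgG and 1.52 and 0.626 FPKM with KIAA1429. The KIAA1429 RIP libraries were the lowest 2 of the 4, and the groups did not overlap. For ID2 the log2 fold change was -0.88 ± 0.61 (SE from limma) with an unadjusted p from limma of 0.192, so the difference was not larger than the error allows. With pseudocounts of 0.1 and 0.01 in place of 1 the ID2 estimate was -1.36 and -1.44. With the pseudocount of 1 it was -0.50 without IgG RIP replicate 1 and -1.25 without IgG RIP replicate 2. Without KIAA1429 RIP replicate 1 it was -1.19, and without KIAA1429 RIP replicate 2 it was -0.56. Gaps between replicates were 0.75 in IgG RIP and 0.63 in KIAA1429 RIP on the log2 scale, close to the medians of 0.62 and 0.56 over 2973 gene totals of like level, meaning within 2-fold of the mean of ID2.

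The FPKM of ID2 was placed on different transcripts in the 2 replicates of both groups. ID2-201 (chr2:8818975-8824583) took 100% of the total in replicate 2 of IgG RIP and of KIAA1429 RIP and was listed at 0 in replicate 1 of each. ID2-203 had nearly the same level in replicate 1 of both groups, and took 38.9% of the total in IgG RIP and 98.9% in KIAA1429 RIP. ID2-202, a shorter model that ends soon after the stop codon, had 2.34 FPKM in IgG RIP replicate 1 and 0.0175 FPKM in KIAA1429 RIP replicate 1. ID2-201 had 1.86 FPKM in IgG RIP replicate 2 and 0.626 FPKM in KIAA1429 RIP replicate 2. None of these transcripts had a mean of 1 FPKM over the 4 libraries, and none was tested alone. ID2-201 and ID2-202 were listed through IgG RIP alone, and ID2-203 through both groups. The lower total of ID2 thus rests on transcripts let in by the group in which they are high.

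ID3 had 8.72 and 7.14 FPKM in the IgG libraries, against 8.47 and 8.68 FPKM in the KIAA1429 libraries. The groups overlapped, and the KIAA1429 RIP replicates were only 0.03 apart on the log2 scale, a gap undercut by 4.08% of the 4883 gene totals of like level. The log2 fold change was 0.11 ± 0.38 (SE from limma), and it turned to -0.03 when the libraries were scaled to equal FPKM sums, a step that moved the median of all gene totals from 0.02 to -0.11. With libraries scaled to equal medians, ID3 had 8.17 and 7.69 with IgG and 8.24 and 8.83 with KIAA1429, and its groups no longer overlapped. The steady total had 3 leading transcripts over the 4 libraries, with ID3-202 leading in IgG RIP replicate 1 and KIAA1429 RIP replicate 2. The protein-coding ID3-201 (chr1:23884409-23886285, minus strand) had IgG RIP values of 3.03 and 5.34 FPKM and KIAA1429 RIP values of 0 and 2.94 FPKM, so its groups did not overlap. The processed transcripts ID3-202 and ID3-203 together had 5.68 and 1.80 FPKM with IgG and 8.47 and 5.74 FPKM with KIAA1429, where KIAA1429 RIP replicate 1 was entirely ID3-203. For ID3-201 alone, the log2 fold change was -1.35 ± 0.89 (SE from limma) with an unadjusted p from limma of 0.193, and it was -0.36 without KIAA1429 RIP replicate 1 and -2.34 without KIAA1429 RIP replicate 2. With pseudocounts of 0.1 and 0.01 in place of 1 the ID3-201 estimate was -2.90 and -4.55. The coding transcript and the whole gene thus differed in sign, and neither differed by more than its error allows. The whole gene includes ID3-203, which was listed through KIAA1429 RIP alone, so its sign rests in part on a transcript let in by that group.

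ID1, ID2 and ID3 are paralogues, and reads that match more than one of them would blur their values. Over the reference transcripts, the longest identical stretch was 21 bases between ID1 and ID2, 19 bases between ID2 and ID3 and 15 bases between ID1 and ID3. No stretch of 50 bases of ID1 or ID3 occurred in a transcript of another gene name on either strand. For ID2, 0.667% of such stretches occurred in ID2B, which was not listed, and 3.62% lay opposite the antisense gene ID2-AS1. Opposite strands also held 2.90% of the SOCS2 stretches (SOCS2-AS1), 3.50% of the MYC stretches (CASC11) and 1.08% of the EGFR stretches (EGFR-AS1). None of these antisense genes was listed, and whether strand was used in counting is not stated, so reads from either strand there cannot be told apart.

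SOCS2 had 2.58 and 2.44 FPKM in the IgG libraries, against 6.77 and 3.56 FPKM in the KIAA1429 libraries. Both KIAA1429 RIP libraries exceeded both IgG RIP libraries. The IgG RIP libraries were close together, with a gap of 0.06 on the log2 scale, while the KIAA1429 RIP libraries were 0.77 apart. On the log2 scale SOCS2 was higher by 0.76 ± 0.51 (SE from limma) with an unadjusted p from limma of 0.182. The difference was 0.38 without KIAA1429 RIP replicate 1 and 1.15 without KIAA1429 RIP replicate 2.

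A different SOCS2 transcript led in each of the 4 libraries. IgG RIP replicate 1 held only SOCS2-205 at 2.58 FPKM, and IgG RIP replicate 2 held only SOCS2-206 at 2.44 FPKM. KIAA1429 RIP replicate 1 was led by SOCS2-210 at 4.64 FPKM, followed by SOCS2-208 at 1.95 FPKM and SOCS2-206 at 0.176 FPKM. KIAA1429 RIP replicate 2 was led by SOCS2-202 at 2.01 FPKM, followed by SOCS2-206 at 1.49 FPKM. Of the 5 SOCS2 transcripts, SOCS2-210 was the only one with groups that did not overlap, at 0 in both IgG RIP libraries and at 3.80e-05 FPKM in KIAA1429 RIP replicate 2. No SOCS2 transcript was above 0 in all 4 libraries, so the higher level of SOCS2 can be read from the sum alone. SOCS2-202, SOCS2-208 and SOCS2-210 were listed through KIAA1429 RIP alone, and SOCS2-205 through IgG RIP alone. The higher sum thus rests on transcripts let in by the group in which they are high. SOCS2-206, listed through both groups, overlapped between them.

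Since ID2 and SOCS2 were chosen as m6A-regulated mRNAs, the sites of the m6A sequence context GGACT are shown for the ID2-201 and SOCS2-206 mRNAs, with the motif in capitals and the strand of the mRNA, which is plus for both (GRCh37).
ID2 coding region, chr2:8822524-8822544: atcgccctGGACTcgcatccc
ID2 3′ UTR, chr2:8823992-8824012: tcttacttGGACTgtgatatt
SOCS2 5′ UTR, chr12:93966481-93966501: gctgcgagGGACTttgtcatc
SOCS2 5′ UTR, chr12:93966564-93966584: ccccgcagGGACTcgttttgg
SOCS2 coding region, chr12:93968668-93968688: ttcagattGGACTctatcata
SOCS2 coding region, chr12:93968888-93968908: ccatctggGGACTgcctttac
The ID2 site in the 3′ UTR lies 193 bases after the stop codon. Of listed transcripts of like length, within 2-fold, 85.8% held a GGACT for ID2-201 and 88.4% for SOCS2-206, so these sites are common. The shorter motif GGAC, which includes every GGACT, occurred 6.86 times per 1000 bases in ID2-201 and 4.60 times in SOCS2-206, against medians of 3.96 and 3.90 in transcripts of like length. Of the 16 transcripts of the 6 genes in which GGAC was counted, 12 lay above the median for their length and 4 below it, namely ID1-201, EGFR-204, EGFR-209 and SOCS2-208. Several are transcripts of the same gene that share sequence, so they do not amount to that many separate cases. m6A was not measured in these libraries.

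MYC had IgG RIP values of 63.6 and 65.5 FPKM and KIAA1429 RIP values of 46.5 and 14.3 FPKM. The IgG RIP libraries nearly coincided, and both KIAA1429 RIP libraries were below them. MYC had a log2 fold change of -1.28 ± 0.52 (SE from limma), with an unadjusted p from limma of 0.0438 that ranked 456 of 11361. The gap between the KIAA1429 RIP replicates was 1.64 on the log2 scale, wider than for 98.8% of the 1857 gene totals of like level. Without KIAA1429 RIP replicate 2 the log2 fold change was -0.46, and without KIAA1429 RIP replicate 1 it was -2.10.

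MYC-202 (chr8:128748330-128753680), the most abundant of the 6 MYC transcripts by mean, had 21.7 and 31.4 FPKM with IgG and 24.0 and 0.742 FPKM with KIAA1429. It was at the IgG RIP level in one KIAA1429 RIP library and near 0 in the other, so its groups overlapped. The other 5 MYC transcripts together had 41.9 and 34.2 FPKM in the IgG libraries, against 22.6 and 13.5 FPKM in the KIAA1429 libraries, and here the groups did not overlap. MYC-204, MYC-205, MYC-206 and MYC-207 were each lower in both KIAA1429 RIP libraries. Of these, MYC-205 had IgG RIP values of 13.4 and 9.61 FPKM and KIAA1429 RIP values of 6.25 and 2.28 FPKM, with a log2 fold change of -1.34 ± 0.57 (SE from limma) and an unadjusted p from limma of 0.0692. Without KIAA1429 RIP replicate 2 this was -0.77, and without KIAA1429 RIP replicate 1 it was -1.91. These transcripts overlap in the genome and share reads, so they are not independent measurements.

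EGFR had 58.0 and 86.6 FPKM with IgG and 39.9 and 35.4 FPKM with KIAA1429. The KIAA1429 RIP libraries were close together and both lay below the IgG RIP libraries. For EGFR the log2 fold change was -0.90 ± 0.32 (SE from limma), with an unadjusted p from limma of 0.0253 that ranked 264 of 11361. The difference between groups was larger than for 95.7% of the 1589 gene totals of like level. It remained negative without each library in turn, between -1.18 and -0.61. The EGFR total includes EGFR-202, EGFR-205, EGFR-206 and EGFR-209, which are listed through IgG RIP alone. The order of the groups, the fold change and its rank thus rest in part on transcripts let in by the group in which they are high.

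**Figure D2:**
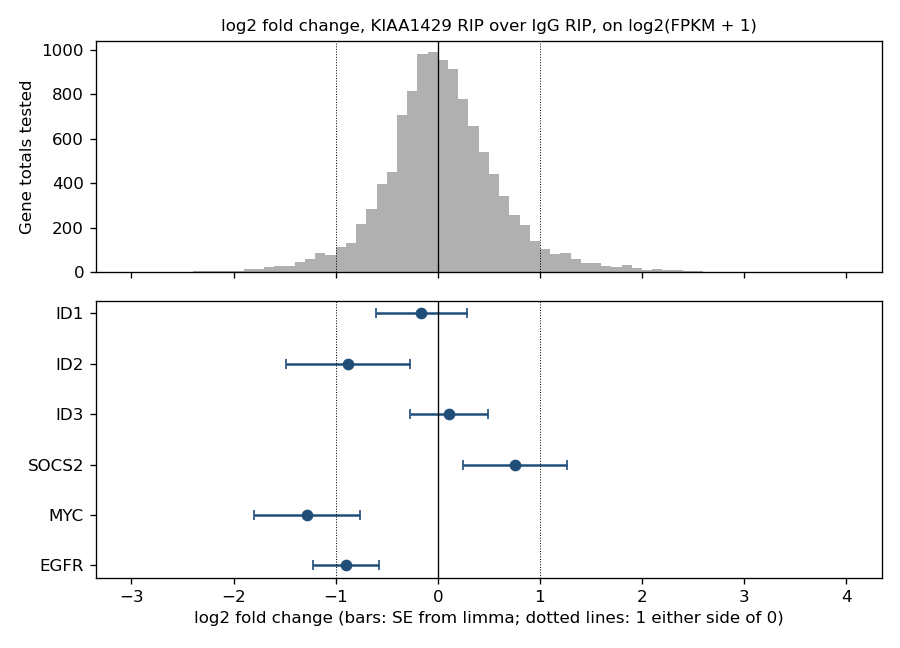
Upper panel, the number of gene totals at each log2 fold change, KIAA1429 RIP over IgG RIP on the log2(FPKM + 1) scale, for the 11361 tested, and lower panel, the estimate for each of the 6 mRNAs with its SE from limma as a bar. MYC at -1.28 lies beyond -1, ID2 at -0.88 and EGFR at -0.90 lie just inside it, and ID1 at -0.16 and ID3 at 0.11 are within their SE of 0.

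The transcripts of EGFR differed from the gene total. EGFR-201 (chr7:55086794-55279321) has 28 exons in the annotation and reaches furthest downstream of the listed EGFR transcripts, while EGFR-202 (chr7:55086725-55236328) and EGFR-204 (chr7:55086727-55224644) stop early. In the annotation, EGFR-202 has 16 exons and 113 bases of its own at its 3′ end, and EGFR-204 has 10 exons and 119 bases of its own. The bases shared with EGFR-201 amount to 95.0% of EGFR-202 and 92.4% of EGFR-204. The sequences at which they leave the full-length coding region are shown because values for these transcripts rest on such short stretches. The capitals mark the bases after the last shared one, which in the lines of EGFR-202 and EGFR-204 end in the stop codon of that transcript.
EGFR-202, chr7:55233108-55233130 joined to chr7:55236216-55236222, plus strand, GRCh37: tgccatccaaactgcacctacggGTCCTAA
EGFR-201 there, chr7:55233108-55233130 joined to chr7:55238868-55238874: tgccatccaaactgcacctacggATGCACT
EGFR-204, chr7:55224507-55224536, reading on past the exon end: accgtaaaggaaatcacagGTTTGAGCTGA
EGFR-201 there, chr7:55224507-55224525 joined to chr7:55225356-55225366: accgtaaaggaaatcacagGGTTTTTGCTG

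EGFR-201, which encodes the complete receptor, had 20.4 and 37.6 FPKM in the IgG libraries, against 35.1 and 33.5 FPKM in the KIAA1429 libraries. The KIAA1429 RIP libraries lay between the IgG RIP libraries, and the log2 fold change was 0.30 ± 0.41 (SE from limma). EGFR-202 had IgG RIP values of 6.18 and 27.2 FPKM and KIAA1429 RIP values of 6.69e-04 and 0.00141 FPKM, so it was at or near 0 in one group and well above it in the other. EGFR-204 had 17.1 and 16.2 FPKM with IgG and 1.22 and 1.75 FPKM with KIAA1429, with IgG RIP replicates that nearly coincided. Both short transcripts break off within the region that encodes the extracellular part of the receptor, and both were lower in the 2 KIAA1429 RIP libraries. The log2 fold change was -3.83 ± 0.83 for EGFR-202 and -2.84 ± 0.44 for EGFR-204 (SE from limma). Their unadjusted p from limma of 0.00676 and 0.00172 ranked 226 and 79 of 23375 transcripts, and their adjusted p was 0.696 and 0.503, short of the threshold. EGFR-202 met the level for testing through IgG RIP alone, so its fold change and rank come from a transcript let in by the group in which it is high. With pseudocounts of 0.1 and 0.01 in place of 1 the EGFR-202 estimate was -7.02 and -10.20, so its size depends on the pseudocount. No transcript of any gene was called, a share of 0%, and thus 0 of the 17 tested here.

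**Figure D3:**
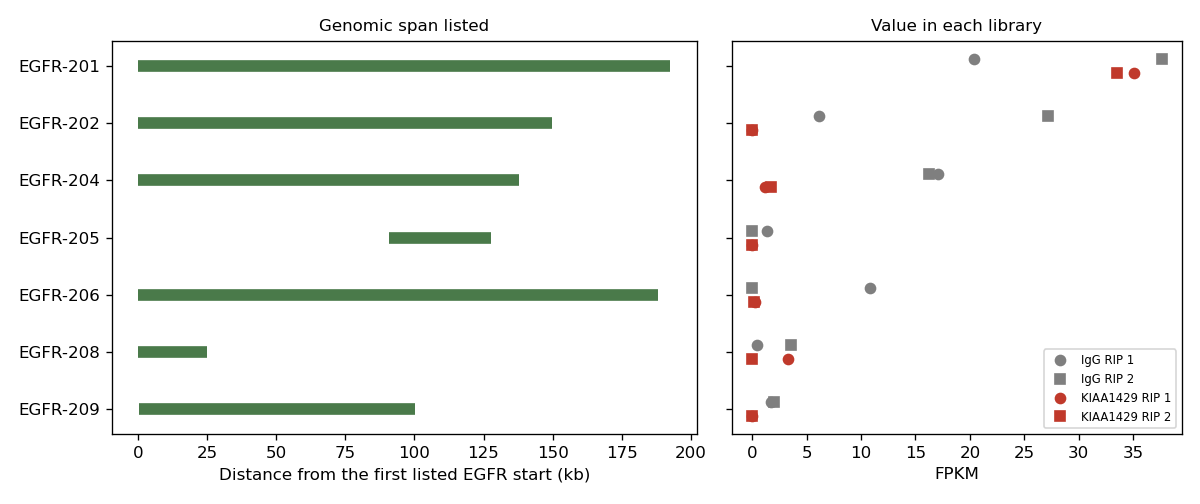
Left, the genomic span of each listed EGFR transcript in kb from the first listed start, and right, its FPKM in each library, with circles for replicate 1, squares for replicate 2, IgG RIP in grey and KIAA1429 RIP in red. EGFR-201 overlaps between groups at 20.4 to 37.6 FPKM, while EGFR-202 and EGFR-204 are at 1.75 FPKM or less in KIAA1429 RIP.

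Among the remaining EGFR transcripts, EGFR-206 had 10.8 FPKM in IgG RIP replicate 1, was listed at 0 in IgG RIP replicate 2, and had 0.231 and 0.132 FPKM in KIAA1429 RIP. The processed transcript EGFR-209 had 1.71 and 2.04 FPKM in IgG RIP and was listed at 0 in both KIAA1429 RIP libraries, and its mean was too low for the test. EGFR-208 overlapped between groups, and EGFR-205 was above 0 in IgG RIP replicate 1 alone. Summed, the 6 EGFR transcripts other than EGFR-201 had 37.6 and 49.1 FPKM in the IgG libraries, against 4.77 and 1.88 FPKM in the KIAA1429 libraries, a 13.0-fold difference between means. The KIAA1429 RIP mean of this sum was 3.33 ± 2.04 FPKM (SD, n = 2), so the size of the fold depends on the library. The sum was formed after the values were seen, and it was not tested. Some of these transcripts have a mean near 0 in KIAA1429 RIP and are listed through IgG RIP alone. For EGFR-201, IgG RIP replicate 2 at 37.6 FPKM exceeded both KIAA1429 RIP libraries, and IgG RIP replicate 1 was below both.

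EGFR-201 made up 35.2% and 43.4% of the EGFR total with IgG, against 88.0% and 94.7% with KIAA1429. The groups were apart by 44.7 percentage points at their nearest, and the mean share was 52.1 points higher in KIAA1429 RIP. Among 4310 genes with a mean of at least 10 FPKM and at least 2 listed transcripts, the share of the most abundant transcript lay wholly higher in KIAA1429 RIP for 17.8% and wholly lower for 14.0%. EGFR was 1 of 132 genes, or 3.06%, with a change between means at least as large in either direction. The EGFR total includes EGFR-202, EGFR-205, EGFR-206 and EGFR-209, which are listed through IgG RIP alone. The change in share and its rank thus rest in part on transcripts let in by the group in which they are high. For MYC-202 the share was 34.1% and 47.9% with IgG and 51.5% and 5.20% with KIAA1429, and the groups overlapped.

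**Figure D4:**
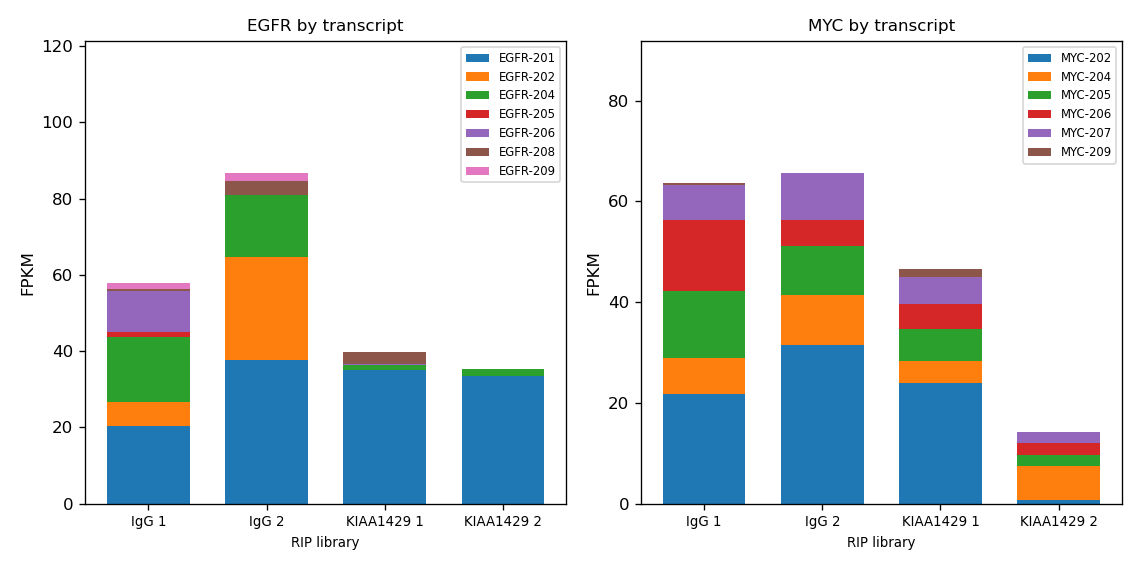
FPKM of each listed transcript of EGFR (left) and MYC (right), stacked to the gene total in each of the 4 RIP libraries. The EGFR-201 segment is 20.4 and 37.6 FPKM in the IgG libraries, against 35.1 and 33.5 FPKM in the KIAA1429 libraries, and the MYC-202 segment is 0.742 FPKM in KIAA1429 RIP replicate 2.

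Over all 17 tested transcripts of the 6 genes, 7 lay wholly lower in KIAA1429 RIP, against 14.5% of the 23375 tested, and 1 wholly higher, SOCS2-210, against 15.2%. SOCS2-210 met the level for testing through KIAA1429 RIP alone and EGFR-202 through IgG RIP alone, so these counts include transcripts let in by the group in which they are high. The 7 were ID3-201, the MYC transcripts MYC-204, MYC-205, MYC-206 and MYC-207, and the EGFR transcripts EGFR-202 and EGFR-204. Since 6 of them come from MYC and EGFR, whose transcripts share reads, they do not amount to that many separate cases. At an unadjusted p under 0.05 from limma, 545 of all transcripts (2.33%) were lower and 708 (3.03%) higher in KIAA1429 RIP, and EGFR-202 and EGFR-204 were among the lower ones. The median log2 fold change was -0.58 over the 17 transcripts and -0.52 over the 6 gene totals, beside 0.01 and 0.02 over all transcripts and gene totals tested.

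Of the 26 transcripts, 16 were listed at 0 in at least 1 library, leaving 38.5% above 0 in all 4 libraries, near the 44.5% of all 34975 transcripts. ID1 and EGFR had the same leading transcript in all 4 libraries, MYC had 2 leading transcripts, ID2 and ID3 had 3, and SOCS2 had 4. Of 7978 tested genes with at least 2 listed transcripts, 42.0% had the same leading transcript in all libraries and 15.5% had 3 or more. For the 1924 of these genes with at least 5 listed transcripts, as SOCS2, MYC and EGFR have, the shares were 31.3% and 32.8%. Values of single transcripts of ID2, ID3 and SOCS2 thus rest on few libraries.

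**Figure D5:**
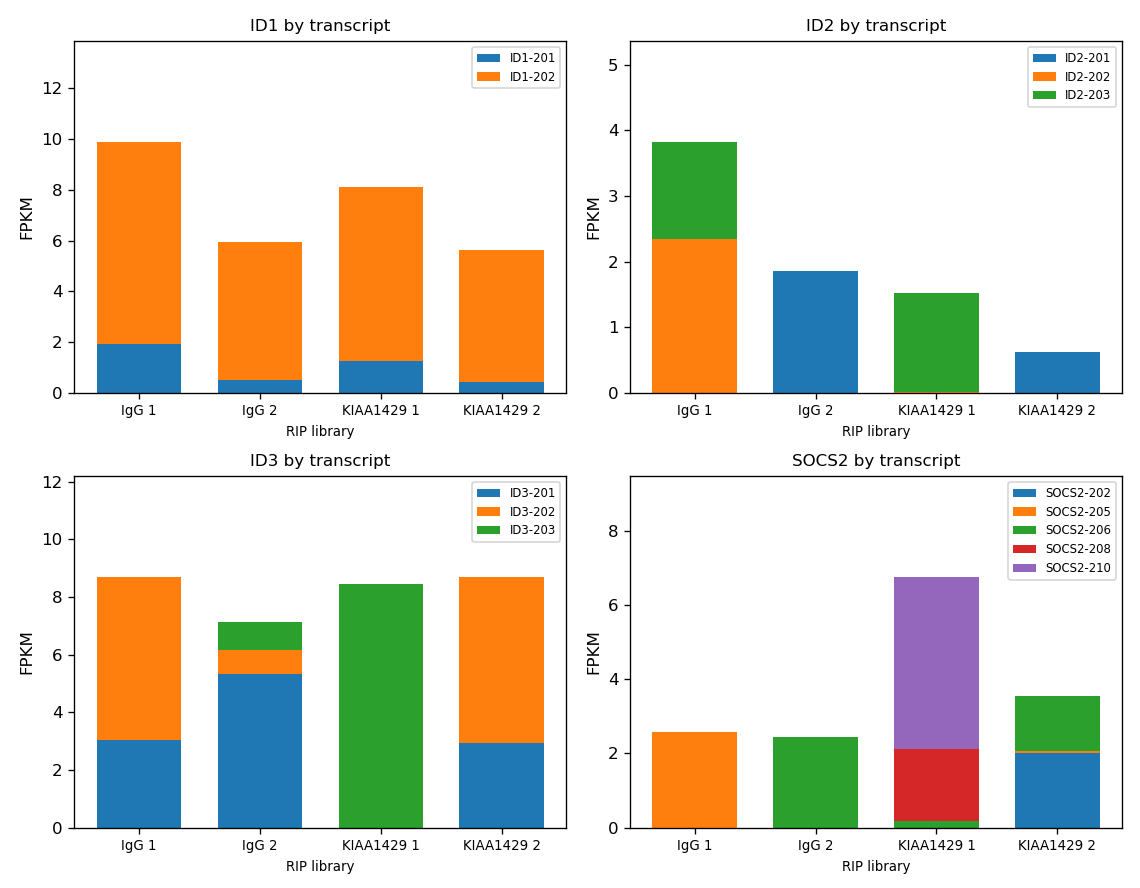
FPKM of each listed transcript of ID1, ID2, ID3 and SOCS2, stacked to the gene total in each of the 4 RIP libraries. ID1-202 leads ID1 throughout, whereas ID2-201 takes 100% of ID2 in replicate 2 of both groups and 0% in replicate 1, and a different SOCS2 transcript leads in each library.

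Genes that work with these mRNAs' products were taken from 11 lists. Of 113 genes, 97 were listed and 90 tested, and 0 passed the adjusted threshold in limma. Wholly higher in KIAA1429 RIP were 11.1% and wholly lower 14.4% of the 90, beside 16.6% and 15.2% of all gene totals, and their median log2 fold change was -0.03. The same 2 shares are the background for the counts of each list.

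Of the partners of the ID proteins, the E protein gene TCF3 was the most abundant, at 27.1 and 17.1 FPKM with IgG and 30.1 and 20.9 FPKM with KIAA1429, with overlapping groups. The paralogue ID4 was not listed. In the BMP and SMAD pathway, 10 of 18 genes were tested, 3 lay wholly higher and 1 wholly lower in KIAA1429 RIP. SMAD1, which carries BMP signals to the nucleus, had 1.60 and 0.470 FPKM in the IgG libraries, against 6.19 and 2.35 FPKM in the KIAA1429 libraries. Its groups did not overlap, and the log2 fold change was 1.33 ± 0.64 (SE from limma) with an adjusted p of 0.997. The ligand gene BMP2, below the level for testing, had IgG RIP values of 0.553 and 0.374 FPKM and KIAA1429 RIP values of 0.905 and 1.79 FPKM. The inhibitor gene SMAD7, also below that level, had 0.970 and 1.87 FPKM with IgG and 0.0722 and 1.07 FPKM with KIAA1429, with overlapping groups.

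Among the other SOCS genes 6 of 7 were listed and tested, 0 lay wholly higher and 2 wholly lower in KIAA1429 RIP. The most abundant, SOCS3, had 49.0 and 45.9 FPKM in the IgG libraries, against 36.1 and 45.1 FPKM in the KIAA1429 libraries. In JAK and STAT signalling, 16 of 20 genes were tested, 1 lay wholly higher and 0 wholly lower, and the most abundant was the phosphatase gene PTPN11 at 84.7 and 51.7 FPKM in the IgG libraries, against 95.5 and 70.1 FPKM in the KIAA1429 libraries. In the ubiquitin ligase that the SOCS box recruits, all 5 genes were listed, and the median log2 fold change was 0.75. Its most abundant gene ELOB had 20.9 and 92.8 FPKM with IgG and 80.5 and 81.3 FPKM with KIAA1429, with overlapping groups. ELOC and RNF7 lay wholly higher and had an unadjusted p under 0.05 from limma, the only 2 of the 90 genes with such a p, beside 3.17% higher and 1.43% lower of all gene totals, and they are named after their values were seen. RNF7 had 13.1 and 13.1 FPKM in the IgG libraries, against 21.1 and 28.8 FPKM in the KIAA1429 libraries.

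In the MYC network, 14 of 16 genes were tested, 1 lay wholly higher and 3 wholly lower in KIAA1429 RIP, and the median log2 fold change was -0.05. The partner gene MAX had IgG RIP values of 61.8 and 31.0 FPKM and KIAA1429 RIP values of 51.3 and 55.5 FPKM, so it overlapped where MYC did not. Of 8 genes of MYC turnover, 3 lay wholly lower, against the 15.2% of all gene totals. The deubiquitinase gene USP36 had 17.8 and 25.2 FPKM with IgG and 7.17 and 14.1 FPKM with KIAA1429, a 2.02-fold difference between means with an unadjusted p from limma of 0.0509. For 9 tested MYC target genes the median log2 fold change was 0.02, and the most abundant, NPM1, had 302 and 258 FPKM in the IgG libraries, against 387 and 344 FPKM in the KIAA1429 libraries.

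Of the other ERBB receptors, ERBB2 and ERBB3 were listed and ERBB4 was not. ERBB3 had IgG RIP values of 18.0 and 11.0 FPKM and KIAA1429 RIP values of 21.6 and 10.6 FPKM, overlapping where EGFR did not. Among 7 EGFR ligand genes 4 were listed. The ligand gene EREG had 4.32 and 3.57 FPKM with IgG and 3.28 and 0.554 FPKM with KIAA1429, and its groups did not overlap. The ligand gene EPGN had 5.65 and 1.69 FPKM in the IgG libraries, against 13.5 and 3.35 FPKM in the KIAA1429 libraries, with overlapping groups. All 15 adaptors and regulators of EGFR were tested, 1 lay wholly higher and 2 wholly lower, and the most abundant, the adaptor gene SHC1, had IgG RIP values of 139 and 170 FPKM and KIAA1429 RIP values of 126 and 147 FPKM.

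Likeness of pattern was measured as the Euclidean distance of log2(FPKM + 1) over the 4 libraries. Among the 6 mRNAs the nearest pair was ID1 and ID3, at 0.62, followed by MYC and EGFR, at 1.34. ID2 was closer to SOCS2, at 2.26, than to its paralogues ID1, at 3.25, and ID3, at 3.68, which reflects level as well as direction. Over all tested gene totals, the nearest to ID1 were BRI3BP and ATR, both at 0.09, and the nearest to ID3 were CCNG2 at 0.09 and CIAPIN1 at 0.13. The nearest to ID2 were TMEM133 at 0.27 and ENOSF1 at 0.35, and the nearest to SOCS2 were FAM98C at 0.19 and WDR66 at 0.26. EGFR had no gene total as close, with PACS1 at 0.52 and FKBP10 at 0.53, and neither had MYC, with Z93241.1 at 0.57 and AL360012.1 at 0.60.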

How the data were processed

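RIP-seq was measured in 2 IgG RIP and 2 KIAA1429 RIP libraries of HCCLM3 cells. The authors selected and fragmented poly(A) RNA and used HISAT2 with the GRCh37/hg19 genome, whereas the submitters' processing notes name Bowtie2 2.1.0. The authors deposited FPKM values per transcript, and the tool that made them and its annotation release are not given in the sources used here. FPKM times transcript length gave no whole steps, so depth is unknown and precision was judged from the replicates. Transcripts, and their sums per gene name, with a mean of at least 1 FPKM were compared on the log2(FPKM + 1) scale by limma (version 3.58.1, R 4.3.3; trend, two-sided, Benjamini-Hochberg over all features tested), which was tested on simulated data. Summaries used Python 3.11.15. Sequences came from GRCh37 and GENCODE 44 mapped to it. Of the 26 transcripts, 16 had the same start and end there, and motifs were counted in those alone, while EGFR-201 has another start. Genes given with values from the pathway lists had group means at least 2-fold apart in the same direction within both replicate numbers (which pair no libraries), or else were the most abundant of their list, except ELOC and RNF7, which were named for an unadjusted p under 0.05. The members and lists were chosen with earlier results of these data known. Alternatives were other pseudocounts, filters and scalings, a replicate block, no trend, single or protein-coding transcripts, and each library left out.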

Additional observations from a re-analysis of the deposited data

How the results depend on the processing

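No source says that same-numbered libraries belong together, and their deviations correlated at 0.19 over gene totals and 0.03 over transcripts. With the replicate number as a block, limma called 13 gene totals (12 higher, 1 lower), none of the 6 mRNAs among them, against 0 without it, and 0 transcripts. Every other alternative called 0 gene totals and 0 transcripts. For the 6 gene totals, 74 of 81 alternative estimates kept their direction and none passed the adjusted threshold, with adjusted p from limma between 0.191 and 1.00. ID3 turned to -0.03 with equal FPKM sums, to -0.43 by its most abundant transcript and to -1.35 by protein-coding transcripts alone. ID2 moved past -1 to -1.36 and -1.44 with pseudocounts of 0.1 and 0.01, and EGFR to -1.05 with equal FPKM sums. By the most abundant transcript, MYC moved to -2.04 and SOCS2 past 1 to 1.25. EGFR turned to 0.30 by its most abundant transcript, EGFR-201, by construction. ID2 and SOCS2 had no estimate with a filter at a mean of 5 FPKM, nor ID2 by its most abundant transcript. All alternatives for the count of mRNAs whose groups did not overlap were chosen after the data were seen. By the most abundant transcript alone, 1 of the 6 mRNAs had groups that did not overlap, against 4 by sums. This was SOCS2, with 0 in IgG RIP and 3.80e-05 FPKM in KIAA1429 RIP replicate 2. The count was 5 with median scaling, where ID3 lay wholly higher, and 5 by protein-coding transcripts, where ID3 lay wholly lower.

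Leaving out each library in turn gave estimates from -0.49 to 0.17 for ID1, -0.02 to 0.24 for ID3, -1.25 to -0.50 for ID2, 0.38 to 1.15 for SOCS2, -2.10 to -0.46 for MYC and -1.18 to -0.61 for EGFR. Of single transcripts, ID1-201 ranged from -0.72 to 0.24, ID1-202 from -0.36 to 0.12, ID3-202 from -1.81 to 0.94, ID3-203 from -0.49 to 2.76, SOCS2-206 from -1.00 to 0.78, EGFR-201 from -0.13 to 0.72, EGFR-206 from -3.32 to 0.24 and EGFR-208 from -1.36 to 0.76, so their directions rest on single libraries. SOCS2-206 also turned to 0.40 and 1.76 with pseudocounts of 0.1 and 0.01. ID3-201 ranged from -2.34 to -0.36, MYC-202 from -3.96 to -0.12, MYC-204 from -0.84 to -0.32, MYC-205 from -1.91 to -0.77, MYC-206 from -1.73 to -0.45 and MYC-207 from -1.48 to -0.53, and SOCS2-210 from 0.00 to 2.50. EGFR-202 and EGFR-204 stayed negative, from -4.82 to -2.84 and from -2.99 to -2.68. With pseudocounts of 0.1 and 0.01, EGFR-202 moved to -7.02 and -10.20 and ID3-201 to -2.90 and -4.55, so the size of these changes depends on the pseudocount. Where a group is left with 1 library, limma assumes that it varies like the others. The causes of these changes were not tested.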
